A study of Drosophila melanogaster with 26 samples.

Results

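Peroxiredoxins are small enzymes that reduce hydrogen peroxide with a reactive cysteine. In *Drosophila*, *Prx6b*, *Prx6c* and *CG12896* encode similar single-cysteine peroxiredoxins, and their genes lie close together on chromosome arm 2R in a cluster known as *Prx2540*. The mitochondrial and cytosolic superoxide dismutases, *Sod2* and *Sod1*, turn superoxide into hydrogen peroxide, and catalase, encoded by *Cat*, breaks the peroxide down to water and oxygen. These enzymes are well known for limiting oxidative damage. HIF, which induces many transcripts at low oxygen, has an alpha subunit encoded in flies by *sima*, and the estrogen-related receptor, *ERR*, is a nuclear receptor that controls genes of carbohydrate metabolism in larvae.

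The 6 genes *Prx6b*, *Prx6c*, *CG12896*, *Cat*, *Sod1* and *Sod2* were taken as a set, and every probe set annotated to any of them was followed across all arrays. The set was chosen on values measured in these arrays, so the levels of its members are given as a description, with no test. The annotation used here lists 4 probe sets of the 18952 on the array for 5 of the 6 genes. It lists 1 probe set for *Prx6b*, *CG12896* and *Prx6c* together, 1 for *Prx6c* alone, 1 for *Cat* and 1 for *Sod2*. It lists none for *Sod1*, whose level is not reported. The shared probe set reads its 3 genes jointly and cannot say which of them gave the signal. The *Prx6c* probe set is uncertain as well, since an annotation that accompanies the study assigns it to all of the cluster genes, which are close copies of each other.

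Whole late-L3 larvae with a partly cleared gut, 10 to 4 h before pupariation, were kept for 6 h at 25°C in 4% oxygen (H-treatment) or in normoxia. The double-mutants were *sima07607,dERR1/sima07607,dERR2*, the *ERR* mutants *dERR1/dERR2*, the *sima* mutants homozygous for *sima07607*, a P-element insertion in an intron of the gene, and the controls came from *w1118* parents. Mutants were the larvae without GFP from parents with a GFP-marked TM3 balancer, whereas the controls carried no balancer. Each group had 3 biological replicates except *w1118* under H-treatment, which had 5, and each replicate pooled at least 10 larvae, so 26 arrays fall into 8 groups. All levels below are log2 RMA intensities, on which a step of 1 is a factor of 2, and levels were compared between arrays within a probe set, never between probe sets.

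The *sima* transcript separated the genotypes, at 4.97 to 6.15 in the double-mutants and *sima* mutants and at 7.62 to 8.36 in *ERR* mutants and *w1118*. The *ERR* probe set was dim everywhere. It read 4.13 to 4.65 in *ERR* mutants, 4.53 to 5.22 in double-mutants and 4.75 to 5.33 in *w1118*, so it bears little on the label of the double-mutants. Array medians ranged from 35.4 to 45.4 on the linear scale. Within *w1118* under H-treatment, replicates 2 and 3 differed by 0.16 per probe set on average and replicates 4 and 5 by 0.25, against 0.35 to 0.45 for the other pairs. In that group the mean of 7 testis markers also ran from 6.53 to 9.26, against 8.88 to 9.31 in *w1118* in normoxia. Markers of fat body, midgut, muscle, hemocytes, salivary gland and testis were all measured in these whole animals, and in such samples fewer cells of a type and less RNA per cell cannot be told apart.

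The *Prx2540* cluster stood far higher under H-treatment in all 4 genotypes, whereas *Cat* and *Sod2* differed by 0.39 log2 units or less in each. In *w1118*, the shared probe set was 6.70-fold higher under H-treatment and the *Prx6c* probe set 12.3-fold higher. In the double-mutants, mutant for both regulators, the difference was 16.3-fold for the shared probe set and 6.84-fold for *Prx6c*. For both cluster probe sets, every H-treated array of a genotype was above every normoxic array of that genotype.

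**Figure D1:**
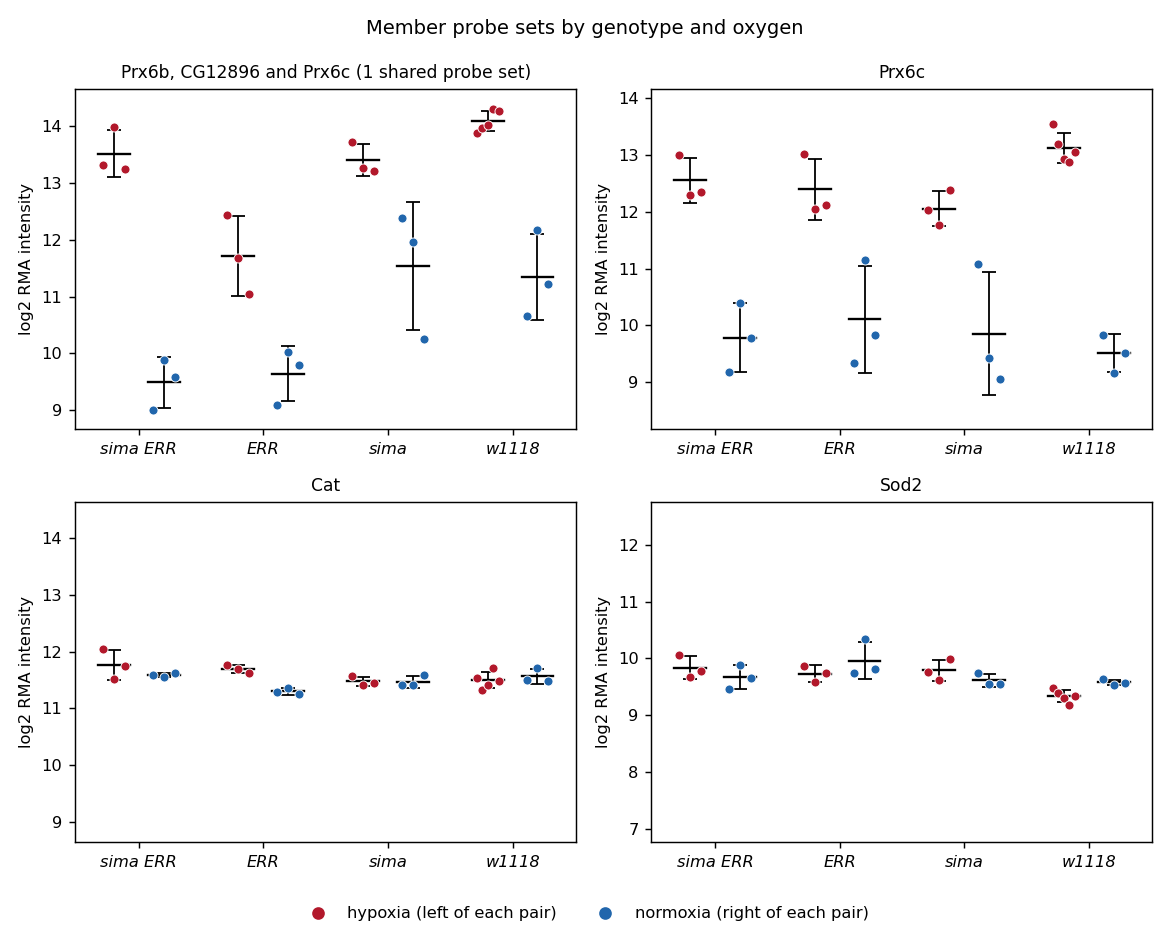
Log2 RMA intensity (y axis) of the 4 member probe sets on each of the 26 arrays, by genotype (x axis), with H-treated arrays in red on the left of each pair and normoxic arrays in blue on the right. Bars are the mean and SD, the y axes span about the same range in every panel, and the H-treated arrays of both cluster probe sets lie above the normoxic arrays of the same genotype.

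The shared probe set for *Prx6b*, *CG12896* and *Prx6c* read 13.32, 14.00 and 13.25 in H-treated double-mutants, against 9.01, 9.89 and 9.58 in normoxic double-mutants. In *ERR* mutants it read 12.43, 11.68 and 11.04 under H-treatment, against 9.10, 10.03 and 9.80 in normoxia. In *sima* mutants the values were 13.73, 13.26 and 13.22 under H-treatment, against 12.39, 11.97 and 10.26 in normoxia. These triplets do not overlap within any genotype, but the normoxic *sima* arrays spread widely, since replicate 3 was low. In *w1118* the 5 H-treated arrays read 13.89, 13.98, 14.03, 14.31 and 14.27, against 10.67, 12.17 and 11.22 in normoxia. The H-treated *w1118* arrays were the tightest group, at 14.10 ± 0.18 (SD, n = 5). Their readings lie near the top of the scale, where the highest intensity of any probe set was 23239.9 before log2. Whether readings flatten there was not tested, so the spread of this group and the sizes of differences against it are uncertain.

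The difference between H-treatment and normoxia for the shared probe set was 4.03 in double-mutants, 2.08 in *ERR* mutants, 1.87 in *sima* mutants (SE 0.45 for each) and 2.74 in *w1118* (SE 0.40). Of the 18769 probe sets compared, 8 had a larger positive difference in double-mutants, 19 in *ERR* mutants, 75 in *sima* mutants and 25 in *w1118*. The *sima* value depends most on a single array. It was 1.23 without normoxic replicate 3 of *sima*, and 1.70 to 2.29 without any other *sima* array.

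*Prx6c* gave 13.01, 12.30 and 12.36 in H-treated double-mutants, against 9.18, 10.39 and 9.77 in normoxic ones. In *ERR* mutants the values were 13.01, 12.06 and 12.12 under H-treatment, against 9.33, 11.15 and 9.84 in normoxia. In *sima* mutants they were 12.03, 11.76 and 12.39 under H-treatment, against 11.09, 9.42 and 9.06 in normoxia. Again the H-treated arrays lay above the normoxic arrays of their genotype, and 1 high normoxic array in each of *ERR* and *sima* (replicates 2 and 1) narrowed the distance. In *w1118* the H-treated arrays read 13.56, 13.20, 12.93, 12.88 and 13.06, against 9.84, 9.17 and 9.51 in normoxia.

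*Prx6c* was higher under H-treatment by 2.77 in double-mutants, 2.29 in *ERR* mutants, 2.20 in *sima* mutants (SE 0.46 for each) and 3.62 in *w1118* (SE 0.41). The number of probe sets with a larger positive difference was 47 in double-mutants, 13 in *ERR* mutants, 44 in *sima* mutants and 8 in *w1118*. Without normoxic replicate 1 of *sima* its difference in that genotype was 2.82, and without normoxic replicate 2 of *ERR* the difference in *ERR* mutants was 2.81.

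**Figure D2:**
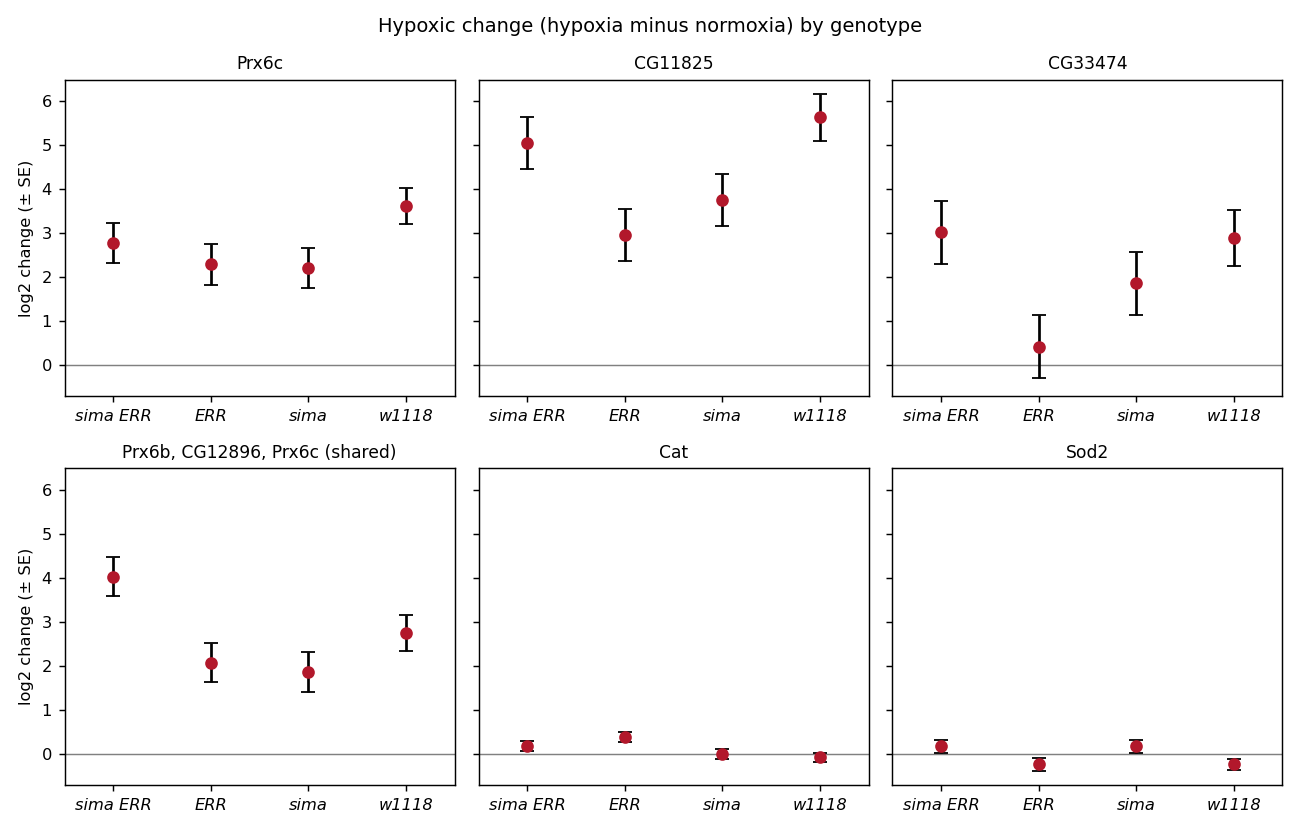
Difference of group means between H-treatment and normoxia (log2, y axis, with the SE of the linear model) in each genotype (x axis) for the probe sets of *Prx6c*, its neighbours *CG11825* and *CG33474*, the probe set shared by *Prx6b*, *CG12896* and *Prx6c*, *Cat* and *Sod2*. The shared probe set has its greatest difference in double-mutants (4.03) and *Prx6c* in *w1118* (3.62), while *Cat* and *Sod2* lie close to 0 in all 4 genotypes.

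The cluster probe sets parted most clearly in the genotypes mutant for *ERR*. In normoxia the shared probe set averaged 9.49 ± 0.45 in double-mutants and 9.64 ± 0.49 in *ERR* mutants, against 11.54 ± 1.13 in *sima* mutants and 11.35 ± 0.76 in *w1118* (SD, n = 3 each). The difference from *w1118* was -1.86 in double-mutants and -1.71 in *ERR* mutants (SE 0.45 for both), with no overlap of the arrays. *Prx6c* showed no such pattern in normoxia. It averaged 9.78 ± 0.61 in double-mutants, 10.11 ± 0.94 in *ERR* mutants and 9.86 ± 1.08 in *sima* mutants, against 9.51 ± 0.33 in *w1118* (SD, n = 3 each). Its differences from *w1118* were 0.28, 0.60 and 0.35 in the same order (SE 0.46), and the arrays of every mutant overlapped those of *w1118*.

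Under H-treatment the shared probe set was below *w1118* in *ERR* mutants (-2.38, SE 0.40), with means of 11.72 ± 0.70 (SD, n = 3) in *ERR* mutants and 14.10 ± 0.18 (SD, n = 5) in *w1118*. It was much closer to *w1118* in the double-mutants (-0.57, SE 0.40) and *sima* mutants (-0.69, SE 0.40). The *sima* arrays, at 13.22 to 13.73, still lay below every *w1118* array. The H-treated double-mutants thus read 13.25 to 14.00, overlapping *w1118*, although their normoxic level was as low as that of *ERR* mutants. *Prx6c* differed from *w1118* under H-treatment by -0.57 in double-mutants, -0.73 in *ERR* mutants and -1.07 in *sima* mutants (SE 0.41 for each). Only the *sima* arrays did not overlap the *w1118* arrays for *Prx6c*. The hypoxic difference in a mutant minus that in *w1118* was 1.29 for the shared probe set in double-mutants, -0.67 in *ERR* mutants and -0.88 in *sima* mutants (SE 0.60). For *Prx6c* the same quantity was -0.85, -1.33 and -1.42 (SE 0.61).

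Ordered by mean, the shared probe set was highest in H-treated *w1118* (14.10), followed by H-treated double-mutants (13.52) and H-treated *sima* mutants (13.41), and the arrays of these neighbours overlapped. A gap of 1.69 without overlap separated them from H-treated *ERR* mutants (11.72), which overlapped normoxic *sima* mutants (11.54), and those overlapped normoxic *w1118* (11.35). A further gap of 1.71 without overlap led to normoxic *ERR* mutants (9.64) and normoxic double-mutants (9.49), which overlapped each other. For *Prx6c* the order was simpler. The H-treated groups ran from *w1118* (13.13) through double-mutants (12.55) and *ERR* mutants (12.40) to *sima* mutants (12.06), each overlapping the next, and a gap of 1.95 without overlap separated them from the 4 normoxic groups, at 9.51 to 10.11, whose neighbours all overlapped.

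In the gene order of the RefSeq annotation, *Prx6c* is followed by *CG11825* and *CG33474* and then by *Prx6b* and *CG12896*. The 2 genes in between have probe sets of their own and were picked after their values had been seen. *CG11825*, annotated as protein-coding, read 9.83, 10.68 and 9.08 in H-treated double-mutants, against 4.61, 5.47 and 4.36 in normoxia. In *w1118* it read 10.47, 11.31, 11.61, 11.65 and 11.25 under H-treatment, against 4.64, 7.06 and 5.18 in normoxia. Its H-treated arrays lay above the normoxic ones in every genotype. The difference was 5.05 in double-mutants (SE 0.59, adjusted p = 5.99e-06), 3.76 in *sima* mutants (SE 0.59, adjusted p = 0.000253) and 5.63 in *w1118* (SE 0.53, adjusted p = 3.25e-07, limma with Benjamini-Hochberg adjustment). In *ERR* mutants it was 2.96 (SE 0.59, adjusted p = 0.0117), which missed the threshold of 0.01. The level of *CG11825* under H-treatment was lower in *ERR* mutants than in *w1118* (-2.98, adjusted p = 0.000682). In normoxia *CG11825* read 4.36 to 7.06, and each genotype had arrays below the array medians (5.16 to 5.53). The sizes of its differences between H-treatment and normoxia are therefore uncertain.

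Under H-treatment *CG33474* was above normoxia without overlap in double-mutants, *sima* mutants and *w1118*, but not in *ERR* mutants. It read 5.50, 8.44 and 5.83 in H-treated double-mutants, against 3.77, 3.34 and 3.59 in normoxia, and 7.18, 8.23, 8.26, 9.18 and 8.76 in H-treated *w1118*, against 4.19, 7.00 and 5.10 in normoxia. It rose by 3.02 in double-mutants (SE 0.71, adjusted p = 0.00765, limma) and by 2.89 in *w1118* (SE 0.64, adjusted p = 0.00353). In *sima* mutants the difference was 1.86 (SE 0.71, adjusted p = 0.13). In *ERR* mutants it stayed at 3.56 to 4.41 under H-treatment and 3.14 to 3.66 in normoxia, a difference of 0.42 (SE 0.71, adjusted p = 0.858). The H-treated *ERR* mutants were below H-treated *w1118* (-4.45, adjusted p = 0.000104). In normoxia *CG33474* was lower in *ERR* mutants (-1.98, adjusted p = 0.0842) and in double-mutants (-1.86, adjusted p = 0.161), with no overlap with *w1118* but short of the threshold. All readings of *CG33474* in *ERR* mutants and normoxic double-mutants lay below the median of every array (5.16 to 5.53), so these groups read near the low end of the scale and the sizes of differences against them are uncertain. No detection call was used here. The interactions of genotype with oxygen for *CG11825* and *CG33474* had adjusted p of 0.179 to 0.955, so a dependence of their response on genotype was not resolved.

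Across the 26 arrays, the probe set most like the shared cluster probe set was that of *CG11825* (Pearson r = 0.93), followed by those of *Gadd45*, a stress-induced gene (0.91), the cuticle protein gene *Cpr67B* (0.88), *CG30389* (0.88) and *CG33474* (0.88). All of these points share the 8 groups, so the likeness is largely one of group means. After each group's mean was removed, r with the shared probe set was 0.78 for *CG11825* and 0.55 for *CG33474*, but 0.22 for *Gadd45*, 0.10 for *Cpr67B* and -0.31 for *CG30389*. Arrays that were high for their group in the shared probe set were thus also high in *CG11825*. Within groups, r with the fat body markers was 0.76 for *CG33474*, 0.47 for *CG11825* and 0.25 for the shared probe set. With the muscle markers it was -0.61, -0.26 and 0.06 in the same order. The part of tissue content in these likenesses was not tested. The most similar probe sets to *Prx6c* were those of *smash*, which encodes a protein of adherens junctions (0.93), *CG6142* (0.91), *CG32687* (0.91), the odorant-binding protein gene *Obp49a* (0.90) and *CG11825* (0.89). Their within-group r with *Prx6c* was 0.36, 0.41, 0.58, 0.41 and 0.14. The shared and *Prx6c* probe sets had r = 0.81 over all arrays and 0.48 within groups.

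**Figure D3:**
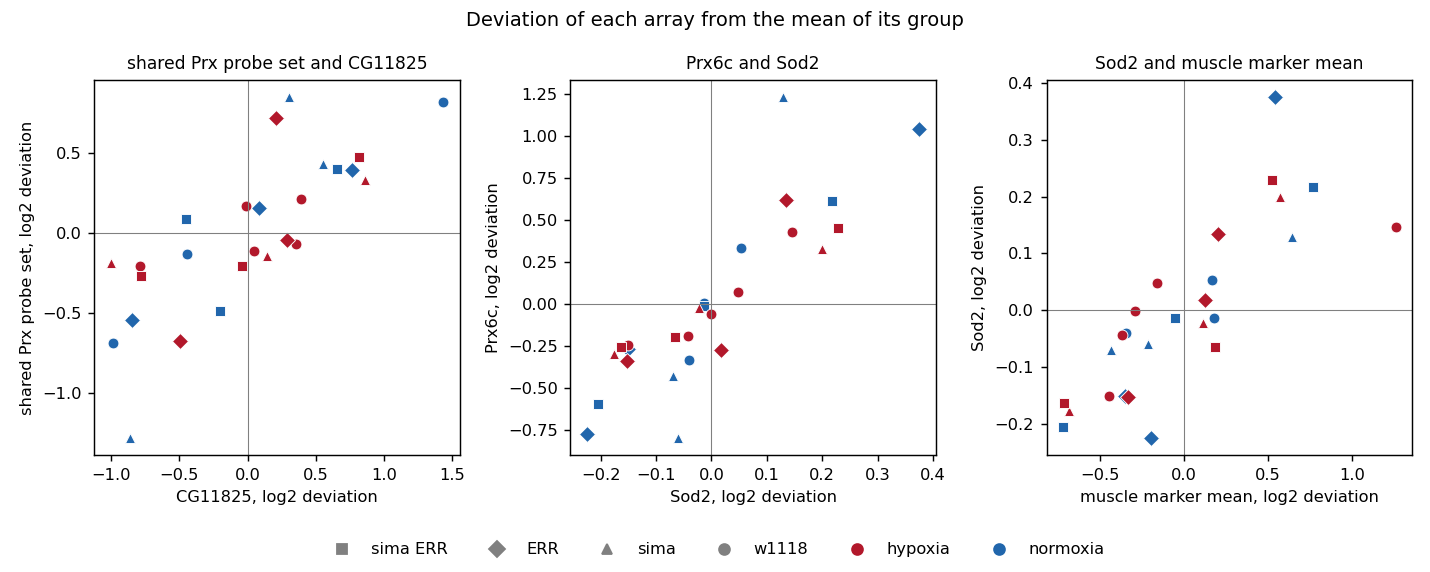
Each point is 1 of the 26 arrays, plotted as its log2 deviation from the mean of its own group, with symbols for genotype and colours for oxygen. The shared peroxiredoxin probe set follows *CG11825* (r = 0.78), *Prx6c* follows *Sod2* (r = 0.86), and *Sod2* follows the mean of 4 muscle markers (r = 0.82).

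Among the probe sets and markers compared with it here, *Prx6c* moved most within groups with a member of quite another pattern. Its deviations had r = 0.86 with those of *Sod2*, although over all arrays the 2 had r = -0.06. *Prx6c* also had a within-group r of 0.75 with the mean of the muscle markers and of 0.50 with the midgut markers. For the shared probe set the same values were 0.22 with *Sod2*, 0.06 with muscle and 0.13 with midgut. Of 7 muscle markers fixed for this purpose, 4 had a probe set of their own (*Mlc1*, *Mlc2*, *up* and *TpnC73F*). Their mean ranged over 9.95 to 11.18 in H-treated and 9.33 to 10.81 in normoxic double-mutants, 10.78 to 11.31 in H-treated and 10.90 to 11.79 in normoxic *ERR* mutants, 9.55 to 10.80 in H-treated and 9.14 to 10.22 in normoxic *sima* mutants, and 9.10 to 10.80 in H-treated and 9.21 to 9.73 in normoxic *w1118*. The high H-treated *w1118* array was replicate 1, and without it the *Prx6c* difference in *w1118* was 3.51. The part of muscle content in the *Prx6c* values was not tested further.

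*Cat* was nearly level across the study. It read 12.04, 11.52 and 11.75 in H-treated double-mutants, against 11.59, 11.54 and 11.62 in normoxia, and 11.76, 11.69 and 11.63 in H-treated *ERR* mutants, against 11.29, 11.36 and 11.25 in normoxia. In *sima* mutants it read 11.57, 11.41 and 11.45 under H-treatment, against 11.41, 11.41 and 11.59 in normoxia. In *w1118* the H-treated arrays read 11.54, 11.33, 11.41, 11.71 and 11.49, against 11.50, 11.72 and 11.48 in normoxia. Only in *ERR* mutants did the oxygen groups not overlap.

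The difference of *Cat* between H-treatment and normoxia was 0.39 in *ERR* mutants and 0.19 in double-mutants (SE 0.11 for both), 0.01 in *sima* mutants (SE 0.11) and -0.07 in *w1118* (SE 0.10). In fold terms the *ERR* difference is 1.31. The *w1118* value turned to 0.08 when each array was centred on its median, a setting that moved the median of all probe sets in that comparison by 0.15, so its sign is not settled. Normoxic *ERR* mutants were the lowest group for *Cat*, at 11.30 ± 0.06 (SD, n = 3), and did not overlap normoxic *w1118* at 11.57 ± 0.13 (SD, n = 3). Ordered by mean, H-treated double-mutants and *ERR* mutants (11.77 and 11.70) came above a run of 5 groups between 11.47 and 11.58 whose neighbours overlapped. Over all arrays, no other probe set of a single gene had r above 0.70 with *Cat*. The highest was that of *Gbp2*, a growth-blocking peptide gene (0.70), then *kar*, which encodes a monocarboxylate transporter of the solute carrier kind (0.68). The neuropeptide receptor gene *CCAP-R* (0.67) came next, then *CG9068* and *CG34357* (0.65 for both). Within groups, r was 0.41 for *Gbp2*, 0.74 for *kar*, 0.67 for *CCAP-R*, 0.58 for *CG9068* and 0.50 for *CG34357*.

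*Sod2* read 10.07, 9.67 and 9.77 in H-treated double-mutants, against 9.46, 9.88 and 9.65 in normoxia, and 9.86, 9.58 and 9.75 in H-treated *ERR* mutants, against 9.74, 10.34 and 9.81 in normoxia. In *sima* mutants it read 9.77, 9.61 and 9.99 under H-treatment, against 9.74, 9.54 and 9.55 in normoxia. In *w1118* it read 9.48, 9.39, 9.29, 9.19 and 9.34 under H-treatment, against 9.63, 9.54 and 9.56 in normoxia. Only in *w1118* did the oxygen groups not overlap, with the H-treated arrays below.

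The difference of *Sod2* between H-treatment and normoxia was 0.17 in double-mutants, -0.23 in *ERR* mutants, 0.18 in *sima* mutants (SE 0.15 for each) and -0.24 in *w1118* (SE 0.13). Centring each array on its median raised the differences in *w1118* by 0.15, so the size of the *Sod2* difference there is uncertain. Its sign held under every alternative. H-treated *w1118* was the lowest of the 8 groups, and the 3 mutants exceeded it under H-treatment by 0.50 (double-mutants), 0.39 (*ERR*) and 0.45 (*sima*), each with SE 0.13 and without overlap. In normoxia only *ERR* mutants stood clear of *w1118* (0.38, SE 0.15), and without their replicate 2 the difference was 0.19. The other 7 groups of *Sod2* formed a chain from 9.58 to 9.96 in which each group overlapped the next.

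The 5 probe sets most like *Sod2* belonged to genes of mitochondrial respiration. They were *SdhD*, a subunit of complex II (r = 0.98 over all arrays, 0.97 within groups), *ATPsynF*, a subunit of ATP synthase (0.94 and 0.94), *CG7430*, a dihydrolipoamide dehydrogenase (0.94 and 0.91), *COX5A*, a subunit of cytochrome c oxidase (0.94 and 0.91), and *ND-B17.2*, a subunit of complex I (0.94 and 0.89). *SdhD* differed by 0.23 in double-mutants, -0.30 in *ERR* mutants, 0.30 in *sima* mutants and -0.26 in *w1118* between H-treatment and normoxia, the same signs as *Sod2*. The mean of the muscle markers had r = 0.82 with *Sod2* both over all arrays and within groups. Its highest group by mean was *ERR* mutants in normoxia, which was also the highest group of *Sod2* by mean. Replicate 2 of that group was the highest array for both, at 11.79 for the markers and 10.34 for *Sod2*. By median the markers were higher in H-treated *ERR* mutants (11.24) than in normoxic ones (11.05). The part of muscle content in the *Sod2* values was not tested.

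Other genes of peroxide and redox metabolism give the setting for the cluster. A list of 48 such genes, compiled with earlier results of these data known, had 41 with a probe set of their own. The threshold for a call was 1.5-fold in either direction, with an adjusted p under 0.01 over all 18769 probe sets. Between H-treatment and normoxia, 3 of 41 were called in double-mutants (4.72% of all probe sets were called there), 1 in *ERR* mutants (0.389%), 2 in *sima* mutants (3.6%) and 6 in *w1118* (5.15%). The median difference of the list was 0.10 in double-mutants, 0.02 in *ERR* mutants, 0.09 in *sima* mutants and 0.07 in *w1118*, beside 0.00, 0.01, 0.02 and 0.06 for all probe sets.

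**Figure D4:**
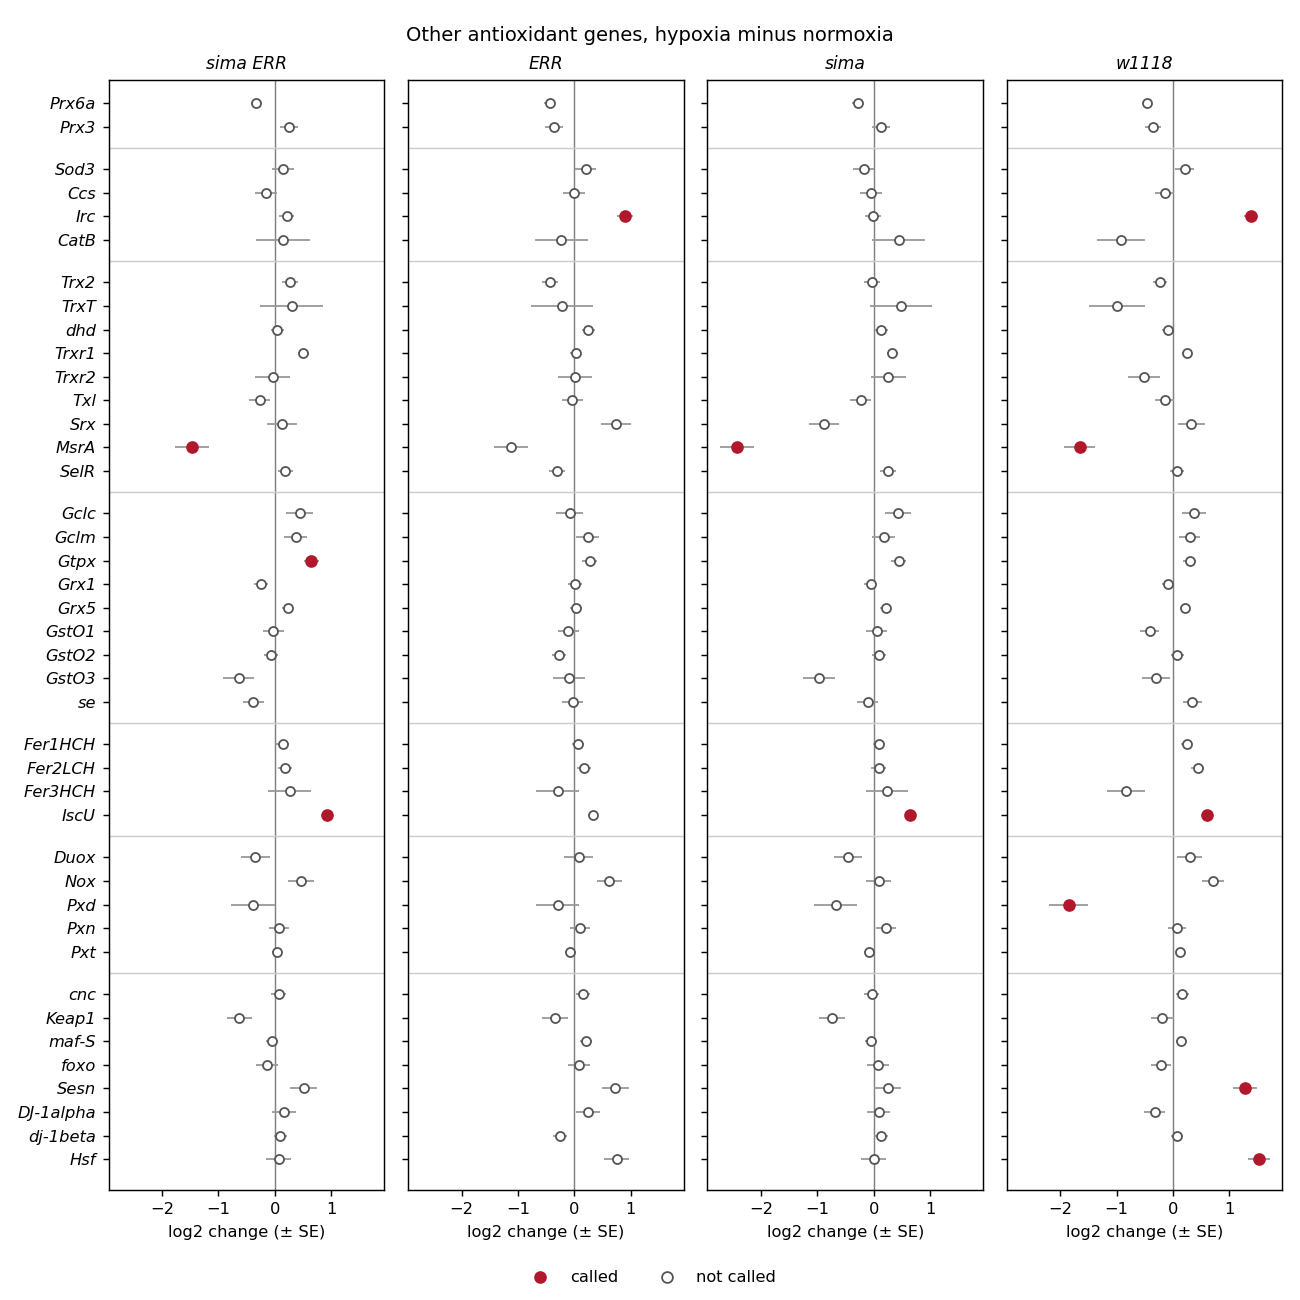
Difference between H-treatment and normoxia (log2, x axis, with SE) for the 41 other antioxidant genes (y axis), in blocks for peroxiredoxins, superoxide and peroxide enzymes, the thioredoxin system, the glutathione system, iron and heme, oxidases and heme peroxidases, and regulators, with 1 panel per genotype. Filled red points passed both thresholds, 3 in double-mutants, 1 in *ERR*, 2 in *sima* and 6 in *w1118*.

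Of 5 listed peroxiredoxins outside the cluster, 2 had a probe set of their own, *Prx6a* and *Prx3*, and neither was called between H-treatment and normoxia in any genotype. *Prx6a*, the single-cysteine relative encoded elsewhere, was lower under H-treatment in double-mutants (-0.33, adjusted p = 0.0338), in *ERR* mutants (-0.44, adjusted p = 0.0209), in *sima* mutants (-0.29, adjusted p = 0.0816) and in *w1118* (-0.47, adjusted p = 0.000822), all under the 1.5-fold threshold. Its oxygen groups did not overlap in any genotype. *Prx3*, the mitochondrial peroxiredoxin, differed by 0.26 in double-mutants, -0.36 in *ERR* mutants, 0.12 in *sima* mutants and -0.35 in *w1118*, with adjusted p of 0.111 or more in each. Under H-treatment *Prx3* was higher in double-mutants than in *w1118* by 0.64 (SE 0.14, adjusted p = 0.00387), a call that was lost without *w1118* replicate 4 or double-mutant replicates 1 or 3. It was also lost with the *w1118* arrays averaged in pairs (2 with 3, 4 with 5), with *w1118* arrays 1 to 3 alone, with a replicate block, and with only the groups compared in the fit. The within-group r of *Prx3* with the muscle markers was 0.63.

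Among the superoxide and peroxide enzymes, *Irc*, which encodes a secreted immune-regulated catalase, rose in *w1118* and *ERR* mutants. It read 10.98, 10.48, 10.65, 10.75 and 10.67 in H-treated *w1118*, against 9.18, 9.54 and 9.25 in normoxia, a difference of 1.38 (SE 0.12, adjusted p = 1.46e-07). In *ERR* mutants it read 10.19, 10.54 and 10.62 under H-treatment, against 9.63, 9.64 and 9.38 in normoxia, a difference of 0.90 (SE 0.14, adjusted p = 0.00144). The *ERR* call was lost without H-treated *ERR* replicate 2 or 3, with median centring of the arrays, and by SAM. In both genotypes mutant for *sima* the arrays overlapped, with 10.18, 10.06 and 9.89 in H-treated against 9.86, 9.72 and 9.92 in normoxic double-mutants (0.21, adjusted p = 0.442) and 9.44, 9.59 and 9.55 in H-treated against 9.42, 9.46 and 9.73 in normoxic *sima* mutants (-0.01, adjusted p = 0.981). The hypoxic change of *Irc* was smaller than in *w1118* in double-mutants (-1.17, SE 0.18, adjusted p = 0.0014) and in *sima* mutants (-1.39, SE 0.18, adjusted p = 0.0002). For *ERR* mutants the interaction was -0.48 (SE 0.18, adjusted p = 0.344). The mean of 6 hemocyte markers ranged over 8.04 to 8.78 in H-treated and 7.83 to 8.28 in normoxic double-mutants, 8.01 to 9.22 in H-treated and 7.92 to 8.62 in normoxic *ERR* mutants, 7.56 to 8.24 in H-treated and 7.67 to 8.07 in normoxic *sima* mutants, and 6.96 to 8.82 in H-treated and 7.10 to 7.35 in normoxic *w1118*. The within-group r of *Irc* with it was 0.39, and the part of hemocyte content was not tested.

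**Figure D5:**
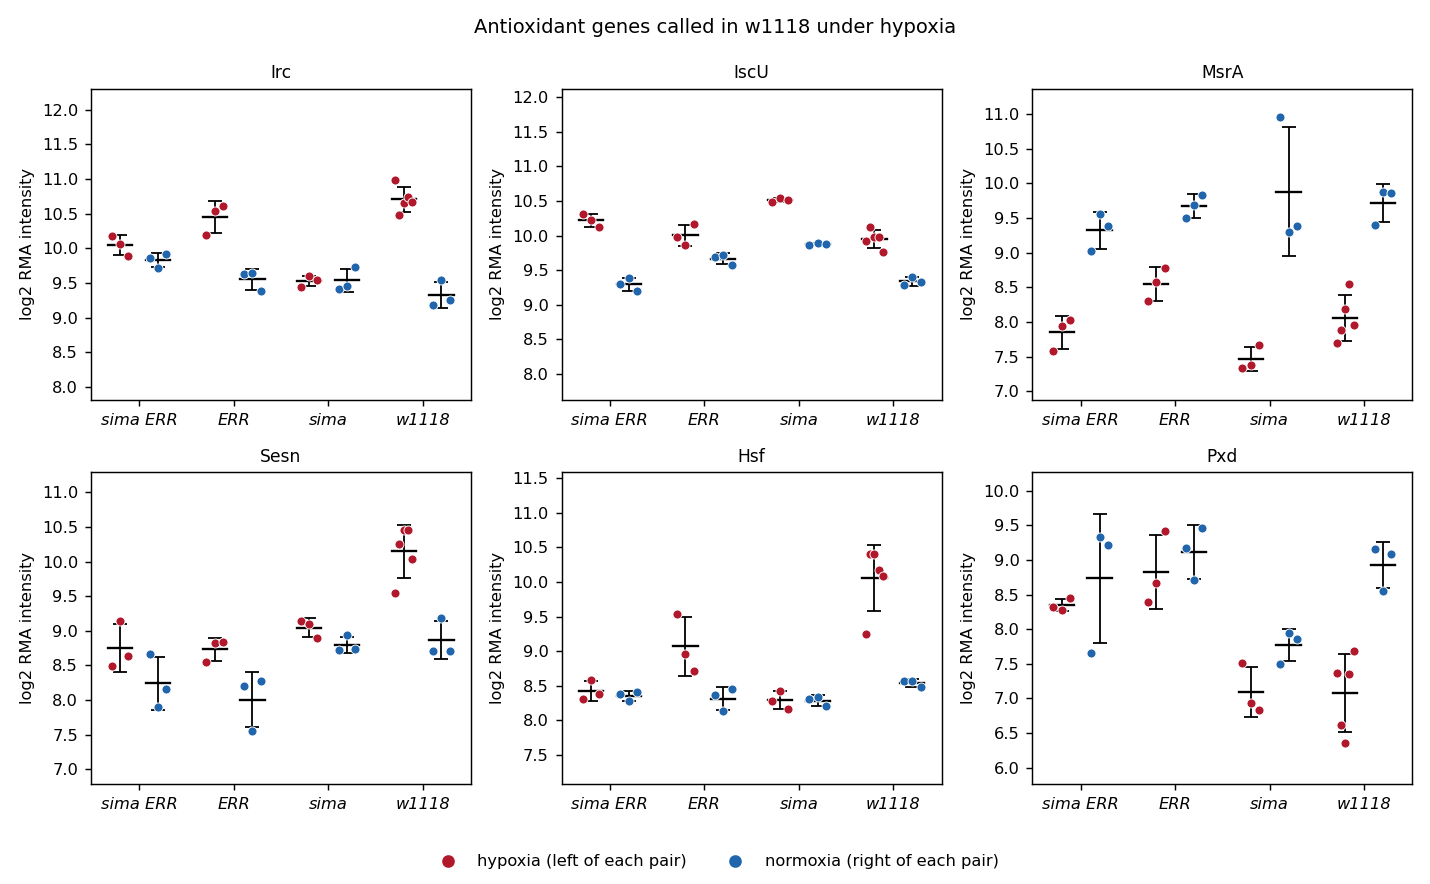
Log2 RMA intensity (y axis) on each array of the 6 antioxidant genes called between H-treatment and normoxia in *w1118*, by genotype (x axis), with H-treated arrays in red on the left and normoxic arrays in blue on the right of each pair, and bars for the mean and SD. *Irc* separates by oxygen in *ERR* mutants and *w1118*, *IscU* and *MsrA* in all 4 genotypes.

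In the thioredoxin system, *MsrA*, an ecdysone-induced methionine sulfoxide reductase, fell in 3 genotypes. It read 7.58, 7.94 and 8.03 in H-treated double-mutants, against 9.02, 9.55 and 9.39 in normoxia (-1.47, SE 0.31, adjusted p = 0.00283). In *sima* mutants it read 7.34, 7.38 and 7.66 under H-treatment, against 10.96, 9.30 and 9.39 in normoxia (-2.42, SE 0.31, adjusted p = 2.36e-05), and in *w1118* 7.70, 7.89, 8.18, 8.56 and 7.95 under H-treatment, against 9.40, 9.88 and 9.86 in normoxia (-1.66, SE 0.27, adjusted p = 0.000247). In *ERR* mutants the difference was -1.12 without overlap, short of the threshold (SE 0.31, adjusted p = 0.0631). The double-mutant call was lost without normoxic replicate 2 or 3 or H-treated replicate 1. *Srx* encodes sulfiredoxin, which restores some over-oxidised peroxiredoxins. Under H-treatment *Srx* read 11.38, 11.56 and 10.69 in *sima* mutants, against 11.73, 12.04, 12.24, 12.75 and 12.53 in *w1118*. It was called lower in *sima* mutants (-1.05, SE 0.24, adjusted p = 0.00599). That call was lost without *sima* replicate 1 or 3 or *w1118* replicate 3, 4 or 5, and with median centring. It was lost as well with the *w1118* arrays averaged in pairs, with arrays 1 to 3 alone, with a replicate block and with only the groups compared in the fit. The within-group r of *Srx* with the muscle markers was -0.69, and the part of muscle content was not tested. The testis-specific thioredoxin gene *TrxT* differed by 0.48 between H-treated and normoxic *sima* mutants (adjusted p = 0.741) and by -1.42 between *sima* mutants and *w1118* in normoxia (adjusted p = 0.139), where the testis markers read 7.46 to 7.99 in *sima* mutants and 8.88 to 9.31 in *w1118*. Its r with the mean of the testis markers was 0.97 within groups.

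Of the 9 glutathione genes, *Gtpx*, a glutathione peroxidase homolog, rose in double-mutants, with 12.52, 12.65 and 12.34 under H-treatment against 11.69, 11.85 and 12.02 in normoxia (0.65, SE 0.13, adjusted p = 0.00267). That call was lost without normoxic replicate 1 or H-treated replicate 1 or 2 of the double-mutants, and with median centring. In the other genotypes *Gtpx* differed by 0.27 (*ERR*), 0.44 (*sima*) and 0.30 (*w1118*), with adjusted p of 0.043 or more. The omega-class transferase gene *GstO3* had the next largest negative difference after *MsrA* in double-mutants (-0.64, adjusted p = 0.181) and in *sima* mutants (-0.97, adjusted p = 0.0338), and was not called. *Gclc*, the catalytic subunit of the rate-limiting enzyme of glutathione synthesis, was higher than in *w1118* in H-treated *sima* mutants by 0.58 (adjusted p = 0.0807) and in normoxic *ERR* mutants by 0.77 (adjusted p = 0.0429), also without a call.

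Of the 4 iron genes, *IscU*, a scaffold on which iron-sulfur clusters are built, rose in 3 genotypes. It read 10.31, 10.22 and 10.13 in H-treated double-mutants, against 9.31, 9.39 and 9.20 in normoxia (0.92, SE 0.09, adjusted p = 6.94e-07). In *sima* mutants it read 10.49, 10.55 and 10.51 under H-treatment, against 9.86, 9.89 and 9.88 in normoxia (0.64, SE 0.09, adjusted p = 8.47e-05), and in *w1118* 9.92, 10.13, 9.98, 9.98 and 9.76 under H-treatment, against 9.28, 9.41 and 9.33 in normoxia (0.61, SE 0.08, adjusted p = 2.37e-05). *IscU* lies just above the fold threshold in *w1118*, and its call there was lost without normoxic replicate 1 or H-treated replicate 2. In *ERR* mutants it differed by 0.34 without overlap (SE 0.09, adjusted p = 0.0621). The ferritin light chain gene *Fer2LCH* was higher in normoxic *sima* mutants, at 13.76 ± 0.13, than in normoxic *w1118*, at 13.09 ± 0.13 (SD, n = 3 each), a difference of 0.66 (SE 0.13, adjusted p = 0.00418). The call of *Fer2LCH* was lost without any one of the 3 *w1118* arrays, or without *sima* replicate 2 or 3. The ferritin gene *Fer3HCH* was dim, at a mean of 4.65 in normoxic double-mutants and 5.88 in normoxic *w1118* (-1.23, adjusted p = 0.0868). Its r with the testis markers was 0.93 within groups, and those markers read 7.03 to 8.39 in normoxic double-mutants and 8.88 to 9.31 in normoxic *w1118*.

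Of the 5 oxidases and heme peroxidases, the peroxidase gene *Pxd* fell in *w1118*, with 7.36, 6.61, 6.36, 7.36 and 7.69 under H-treatment against 9.16, 8.55 and 9.08 in normoxia (-1.86, SE 0.34, adjusted p = 0.000752). Its differences were -0.39 in double-mutants, -0.29 in *ERR* mutants and -0.68 in *sima* mutants, with overlapping arrays and adjusted p of 0.371 or more. H-treated *ERR* mutants were above H-treated *w1118* by 1.75 (SE 0.34, adjusted p = 0.0016), a call lost without *ERR* replicate 3, and H-treated double-mutants were above *w1118* by 1.27 (adjusted p = 0.0144). *CatB*, a catalase-like gene, was listed with the superoxide and peroxide enzymes, not with these 5. It was 6.64 ± 0.11 in normoxic *sima* mutants and 8.003 ± 0.18 in normoxic *w1118* (SD, n = 3 each), a difference of -1.36 (SE 0.47, adjusted p = 0.104). Its r with the testis markers was 0.99 within groups, and in H-treated *w1118* it read 7.05, 8.13, 8.03, 6.01 and 6.17. The part of testis content in the values of *TrxT*, *Fer3HCH* and *CatB* was not tested.

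Of the 8 regulators, *Sesn*, which encodes the stress protein sestrin, and *Hsf*, the heat shock factor gene, rose in *w1118*. *Sesn* read 9.55, 10.25, 10.46, 10.46 and 10.03 in H-treated *w1118*, against 8.71, 9.19 and 8.71 in normoxia (1.28, SE 0.22, adjusted p = 0.000305). *Hsf* read 9.24, 10.40, 10.40, 10.17 and 10.09 in H-treated *w1118*, against 8.57, 8.57 and 8.48 in normoxia (1.52, SE 0.20, adjusted p = 1.83e-05). Neither gene was called between H-treatment and normoxia in a mutant. In *ERR* mutants both were still higher without overlap, *Hsf* at 8.71 to 9.54 against 8.13 to 8.45 and *Sesn* at 8.54 to 8.83 against 7.55 to 8.27. In double-mutants and *sima* mutants the oxygen groups overlapped. Normoxic *Sesn* already averaged 8.01 in *ERR* mutants, against 8.87 in *w1118*. In H-treated double-mutants, *ERR* mutants and *sima* mutants both genes were lower than in H-treated *w1118*. For *Sesn* the differences were -1.39, -1.41 and -1.10 in that order, with adjusted p of 0.00164 or less, and for *Hsf* they were -1.64, -0.99 and -1.77, with adjusted p of 0.0018 or less. The *Sesn* call in *sima* was lost without *sima* replicate 3, and the *Hsf* call in *ERR* without *ERR* replicate 2 or 3 and by SAM. Both were lost as well with the *w1118* arrays averaged in pairs, with a replicate block and with only the groups compared in the fit, and the *Sesn* call also with *w1118* arrays 1 to 3 alone. The within-group r with the muscle markers was -0.86 for *Sesn* and -0.59 for *Hsf*, and the part of muscle content was not tested. For *cnc* and *Keap1*, the activator and inhibitor of the Nrf2-type antioxidant response, the differences between H-treatment and normoxia were 0.07 and -0.63 in double-mutants, 0.15 and -0.34 in *ERR* mutants, -0.04 and -0.74 in *sima* mutants, and 0.17 and -0.19 in *w1118*, with adjusted p of 0.0461 or more. These 2 were named after their values were seen.

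Against *w1118* under H-treatment, 4 of 41 list genes were called in double-mutants (6.05% of all probe sets), 3 in *ERR* mutants (6.16%) and 4 in *sima* mutants (4.56%). Of these 11 calls, 9 were lower in the mutant, and *Prx3* in double-mutants and *Pxd* in *ERR* mutants were higher. The lower calls came only from *Hsf*, *Sesn*, *Irc* and *Srx*, several of them counted in more than 1 mutant. Of all probe sets called, 571 of 1136 were lower in double-mutants, 707 of 1157 in *ERR* mutants and 398 of 856 in *sima* mutants. *Irc* was lower in double-mutants (-0.66, adjusted p = 0.000866, lost without double-mutant replicate 3) and in *sima* mutants (-1.18, adjusted p = 1.05e-06). *IscU* was 0.56 higher in *sima* mutants (adjusted p = 7.69e-05), just under 1.5-fold and so not called. The 3 comparisons share the same *w1118* arrays. In normoxia 0 of 41 genes were called by limma in double-mutants (0.895% of all probe sets), 0 in *ERR* mutants (2.29%) and 1, *Fer2LCH*, in *sima* mutants (1.47%). At an unadjusted p under 0.05 the counts were 8 in double-mutants (20.7% of all probe sets), 11 in *ERR* mutants (26.9%) and 11 in *sima* mutants (22.7%). SAM called 1 in double-mutants (5.29%), 0 in *ERR* mutants (0.517%) and 7 in *sima* mutants (12.1%). The largest normoxic differences of *ERR* mutants were in *Srx* (-1.04, adjusted p = 0.0213) and *Sesn* (-0.86, adjusted p = 0.0302).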

How the data were processed

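RNA of whole larvae was hybridized to Affymetrix Drosophila Genome 2.0 arrays, with 3 biological replicates per group and 5 for *w1118* under H-treatment. The deposited values are intensities that the authors normalized with RMA, on the linear scale from 3.95 to 23239.9, and log2 was taken here. Which RMA version they ran is not given in the sources used here. Controls on the array (183 probe sets) were excluded. Differences, standard errors and adjusted p (Benjamini-Hochberg over 18769 probe sets) were computed with limma 3.58.1 (R version 4.3.3) in a single fit of the 8 groups. The number of arrays limits the precision. The fit was tested on simulated data first.

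The members and lists were chosen with earlier results of these data known. From the list, genes are named where called between H-treatment and normoxia, or among the 2 highest and 2 lowest differences of a comparison, using for each gene its probe set of highest mean. The 5 most similar probe sets by Pearson r are named for each member. Alternatives were median centring, a filter on dim probe sets, separate fits, a replicate block, averaged or fewer *w1118* arrays, each array left out, SAM, any probe set of a gene, and an adjusted p under 0.05 with no fold threshold. Gene order comes from RefSeq. No sequences were used.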

Additional observations from a re-analysis of the deposited data

Results flagged for a closer look

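Of 22 transcripts checked among the 5 H-treated *w1118* arrays, *Hsf* had 1 array far from the rest. Replicate 1 read 9.24, and the other 4 read 10.09 to 10.40. Chance flags about 1 in 20 such groups. The muscle marker mean of replicate 1 was 10.80, against 9.10 to 9.38 in the other 4. Within groups, *Hsf* had r of -0.59 with the muscle markers and 0.76 with the salivary gland markers. The part of tissue content in the *Hsf* values was not tested. The hypoxic change of *Irc* differed between genotypes in the test of the difference itself, with an interaction of -1.39 for *sima* mutants (adjusted p = 0.0002, limma) and of -1.17 for double-mutants (adjusted p = 0.0014), each against *w1118*.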

How the results depend on the processing

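The hypoxic differences of both cluster probe sets kept their sign and moved by less than 1 residual SD under all alternatives except the loss of single *sima* arrays. With each array left out in turn, the shared probe set ranged from 1.23 to 2.29 in *sima* mutants and *Prx6c* from 1.80 to 2.82. Counts of called list genes moved more. With an array left out, they ranged from 0 to 2 between H-treatment and normoxia in *ERR* mutants, 1 to 3 in double-mutants, 2 to 5 for *sima* mutants over *w1118* under H-treatment, 1 to 3 for *ERR* mutants, 2 to 5 for double-mutants, and 0 to 1 for *sima* mutants over *w1118* in normoxia. Shares of all probe sets called stand in parentheses. Without a fold threshold at an adjusted p under 0.05, the counts between H-treatment and normoxia were 5 in double-mutants (9.8%), 2 in *ERR* (1.93%) and 7 in *sima* mutants (8.14%). Against *w1118* under H-treatment they were 9 in double-mutants (15.5%), 5 in *ERR* (18.8%) and 8 in *sima* mutants (11.6%), and in normoxia 4 in *ERR* (9.17%) and 2 in *sima* mutants (3.63%). With only the groups of a comparison in the fit, they were 1 in double-mutants (1.13%), 0 in *ERR* mutants (0%), 2 in *sima* mutants (2.41%) and 4 in *w1118* (2.83%) between H-treatment and normoxia. Among the calls it lost were those of *Pxd* and *Sesn* in *w1118* and of *MsrA* in *sima* mutants and double-mutants. Against *w1118* under H-treatment it gave 0 in double-mutants (1.18%), 0 in *ERR* (1.07%) and 2 in *sima* mutants (1.41%), and 7 for *sima* mutants in normoxia (10.3%). Median centring gave 0 in *ERR* mutants between H-treatment and normoxia (0.139%) and 2 for *sima* mutants over *w1118* in normoxia (1.59%). SAM gave 0 in *ERR* mutants between H-treatment and normoxia (0.0693%), and against normoxic *w1118* 1 in double-mutants (5.29%) and 7 in *sima* mutants (12.1%). For *sima* mutants over *w1118* under H-treatment, averaging H-treated *w1118* arrays 2 with 3 and 4 with 5 gave 2 (2.74%), keeping arrays 1 to 3 alone gave 2 (3.27%), and a replicate block gave 2 (3.01%). In normoxia the replicate block gave 1 in double-mutants (1.28%) and 2 in *sima* mutants (2.5%). The causes of these shifts were not tested. Correlations of same-numbered H-treated and normoxic arrays, as deviations from group means, ran from -0.53 to 0.27. Those of differently numbered arrays ran from -0.45 to 0.45. No pairing by replicate number was thus seen, but the labels do not say whether larvae were collected in pairs.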
